A study of Mus musculus with 24 samples.

Results

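The mouse mitochondrial genome carries 37 genes, and the deposited islet table of 41549 genes holds a row for each of them. They were chosen as every row whose symbol begins with mt-, which gave 13 mRNA genes, 2 rRNA genes and 22 tRNA genes. All 37 lie on chromosome M of GRCm38 in the GENCODE vM21 annotation, 28 on the plus strand and 9 on the minus strand. The minus-strand genes are mt-Nd6 and 8 of the tRNA genes.

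RNA was sequenced from dispersed islet cells of wild-type mice in 24 libraries, S1 to S24, after transfection with 50 pmol of an antisense oligonucleotide (ASO), either a control sequence (Ctr) or αGlu, a locked nucleic acid inhibitor of the tRNA fragment 5'tRF-Glu(CTC). The cells then received 0.5 mM palmitate (PA) bound to bovine serum albumin (BSA), or 0.75% BSA alone, for 48 h in medium with 1% serum, so that Ctr and αGlu cells were each studied under BSA and under PA, with 6 libraries in each of the 4 groups. Each group had 3 libraries in batch 1 (S1 to S12) and 3 in batch 2 (S13 to S24), and what distinguishes the batches is not given in the labels. The methods list C57BL/6NRj mice of both sexes aged 12 to 14 weeks as the islet source and state that the groups of a replicate came from 1 passage or animal. Which libraries share an animal is not given, so the tests are unpaired and their p-values measure the spread between these libraries only. Dispersed islets are a mixture of cell types: the 9 beta cell markers summed to between 83805 and 151590 CPM (counts scaled to a fixed library size) in every library, and acinar markers were also present.

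Mitochondrial DNA is transcribed from both strands into long precursor RNAs, from which the tRNAs are cut out as punctuation between the rRNAs and mRNAs. The mRNAs encode membrane subunits of respiratory complexes I, III and IV and of the ATP synthase, and the remaining subunits, including all of complex II, are made from nuclear genes. In beta cells the ATP made by these complexes links glucose metabolism to insulin secretion.

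Most mitochondrial mRNAs carry a poly(A) tail that is added after cutting, and in several of them the tail supplies part of the stop codon. The libraries were prepared by poly(A) selection, which captures RNAs through a tail at the 3' end. Which of these RNAs carried a tail, and where, was not tested. The last 24 bases of 7 annotated mRNA genes, read in the sense of each gene, are given here as GENCODE holds them for GRCm38. The annotated end of the reading frame is in capitals, and the RNA may extend past it. These 7 genes were chosen to show both kinds of reading-frame ending and the genes that the results turn on. The genes lie at chrM:2751-3707 (mt-Nd1), chrM:5328-6872 (mt-Co1), chrM:7013-7696 (mt-Co2), chrM:7927-8607 (mt-Atp6), chrM:8607-9390 (mt-Co3) and chrM:14145-15288 (mt-Cytb) on the plus strand and at chrM:13552-14070 (mt-Nd6) on the minus strand.
mt-Nd1: gcgggagtaccaccatacataTAG
mt-Co1: ccaacctatgtaaaagtaaaaTAA
mt-Co2: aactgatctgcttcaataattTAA
mt-Atp6: ctatatctacatgataatacaTAA
mt-Nd6: attatcgagattactcgagatTAA
mt-Co3: tctccatttattgatgaggatctT
mt-Cytb: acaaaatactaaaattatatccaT
The annotated mt-Co3 and mt-Cytb genes end on a lone T, which a poly(A) tail completes to a stop codon, whereas the other 5 carry a full stop codon in the DNA.

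Neighbouring mRNA genes of this compact genome share bases, which limits how reads could be assigned. The start of mt-Nd4 and the end of mt-Nd4l share 7 bases at chrM:10167-10173, given in capitals in the sequence that follows.
mt-Nd4l and mt-Nd4: ctactacaATGCTAAaaattatt
The mt-Atp8 and mt-Atp6 genes share 43 bases (chrM:7927-7969), which make up 21.1% of mt-Atp8 and 6.31% of mt-Atp6. On opposite strands, mt-Nd5 and mt-Nd6 share 14 bases (chrM:13552-13565), 0.768% of mt-Nd5 and 2.70% of mt-Nd6. Whether the counting used strand was not given in the sources used here, and none of the 7 nuclear copies of mitochondrial sequence looked for by symbol had a row in the table.

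The tRNA genes were close to uncounted. Over 24 libraries and 636762223 counts, the 22 tRNA genes received 6 counts in all, 2 on mt-Tw and 1 each on mt-Tl1, mt-Tm, mt-Tg and mt-Tr. The other 17 had no count in any library, and a count of 0 allows a level of up to 0.165 CPM in the shallowest library. These tRNA genes are 59 to 75 bases long. With so few counts no comparison of tRNA levels was possible. The αGlu ASO is directed at a fragment of the nuclear-encoded tRNA-Glu, and its target (from the study's oligonucleotide list) is set beside the first 21 bases of the mitochondrial tRNA-Glu gene mt-Te, with identical positions in capitals.
Target of the αGlu ASO: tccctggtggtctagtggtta
mt-Te: gtttctGTaGTtgAaTtacaA
In this ungapped alignment 7 of 21 positions were identical. By identical positions, the closest 21-base window in any mitochondrial gene lay in mt-Nd6, with 14 of 21. The longest unbroken run shared with the target was 10 bases, in mt-Co1, against 6 in mt-Nd6. Pairing of the ASO with these RNAs was not tested.

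The 15 remaining genes passed the filter on low counts and were the ones tested. Their mRNAs received 30653676 counts and their rRNAs 634068. On the deposited TPM scale, a transcript level that takes gene length into account, mt-Co1 stood highest with a median of 22743 TPM over 24 libraries, and it ranked between 4 and 6 among all genes of the table in every library. The gene encodes the catalytic core of cytochrome c oxidase (complex IV), and its partners mt-Co2 and mt-Co3 had medians of 16760 and 14421 TPM. The ATP synthase subunit gene mt-Atp6 had a median of 15955 TPM and mt-Cytb, the only complex III gene of the mitochondrial genome, 12378 TPM. The complex I genes spread widely, from mt-Nd4 with 10414 TPM over mt-Nd1 (8407), mt-Nd5 (8229), mt-Nd2 (7287), mt-Nd4l (3802) and mt-Nd3 (1899) to mt-Nd6 with 49.1 TPM. In between lay mt-Atp8, the second ATP synthase subunit, with a median of 3206 TPM.

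The order of levels was nearly the same in every library. Each gene exceeded the next one down in at least 22 of 24 libraries, except that mt-Nd1 exceeded mt-Nd5 in only 15, so these neighbours did not differ beyond their spread. The rRNAs mt-Rnr2 and mt-Rnr1, of the large and small mitochondrial ribosomal subunits, had medians of 1063 and 815 TPM, below every mRNA but mt-Nd6. The sole light-strand mRNA, mt-Nd6, ranked between 524 and 4127 among all genes. The part of poly(A) selection in the low rRNA, tRNA and mt-Nd6 levels was not tested.

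**Figure D1:**
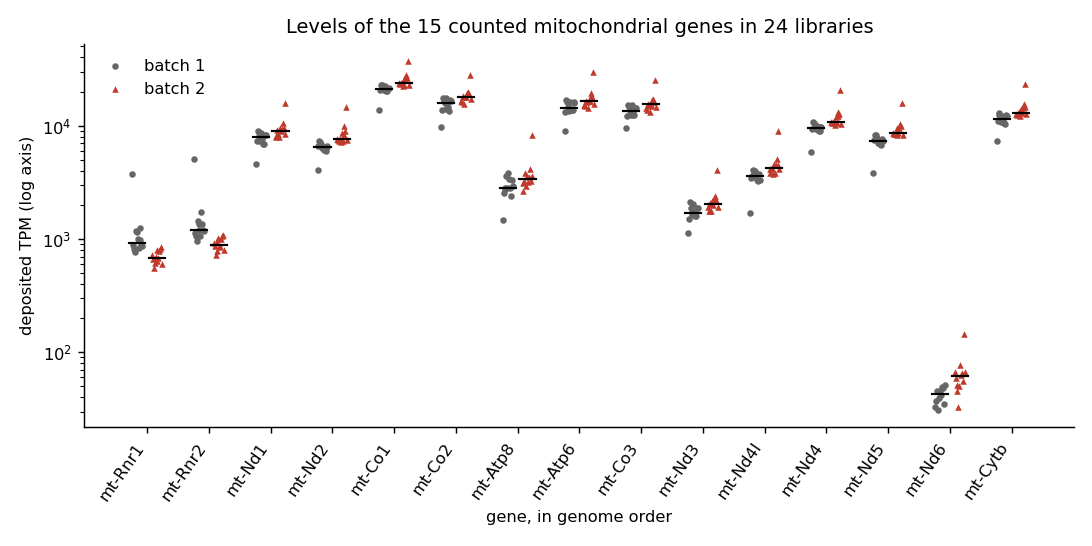
Deposited TPM (log axis) of the 15 counted mitochondrial genes, in genome order, with a point for each of 12 libraries in batch 1 (circles) and batch 2 (triangles) and a bar at the median. The highest gene is mt-Co1 (median over all 24 libraries 22743 TPM) and the lowest mt-Nd6 (49.1 TPM), and in batch 2 the mRNA medians lie higher and the rRNA medians lower than in batch 1.

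Total counts ran from 18214719 to 35001979 per library. Before any comparison, 2 libraries stood apart in the mitochondrial genes. Library S1 (Ctr BSA, batch 1) had the fewest counts, and nuclear-encoded rRNA took 15.9% of its counts against 0.549% to 3.47% in the other 23. The same library gave 0.472% of its counts to mt-Rnr1 and mt-Rnr2 together, against 0.0614% to 0.140% in the others, and the lowest share to the 13 mRNAs, 3.04%. Library S23 (Ctr PA, batch 2) gave 8.73% of its counts to the 13 mRNAs, against at most 5.95% elsewhere. Both are libraries of Ctr cells, 1 under BSA and 1 under PA. The PA tests of the mitochondrial genes are therefore given with and without both, an exclusion chosen after the data were seen. Where no value without S1 or S23 stands beside another result, both libraries are included in it.

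The 13 mRNAs together took between 3.04% and 8.73% of all gene counts, a description of the pool that carries no test. In Ctr cells the share was 3.04%, 4.41% and 3.97% in the BSA libraries of batch 1 and 4.73%, 4.62% and 4.34% in the PA libraries. In batch 2 it was 4.74%, 4.45% and 5.95% under BSA and 5.01%, 4.73% and 8.73% under PA. The treatments thus overlapped over all libraries, and the Ctr PA mean of 5.36% ± 1.67 (SD, n = 6) lay above the Ctr BSA mean of 4.43% ± 0.952 (n = 6). Without S1 and S23 the means were 4.69% ± 0.240 (n = 5) and 4.70% ± 0.748 (n = 5). In αGlu cells the share was 4.58% ± 0.801 under BSA and 4.70% ± 0.499 under PA (n = 6 each), and these groups overlapped too. Each run of 4 consecutive library numbers holds 1 library of each group, and within these 6 sets, an assumed grouping considered after the data were seen, the share was higher under PA in 6 of 6 in Ctr cells (by 0.212 to 2.79 percentage points) and in 5 of 6 in αGlu cells.

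**Figure D2:**
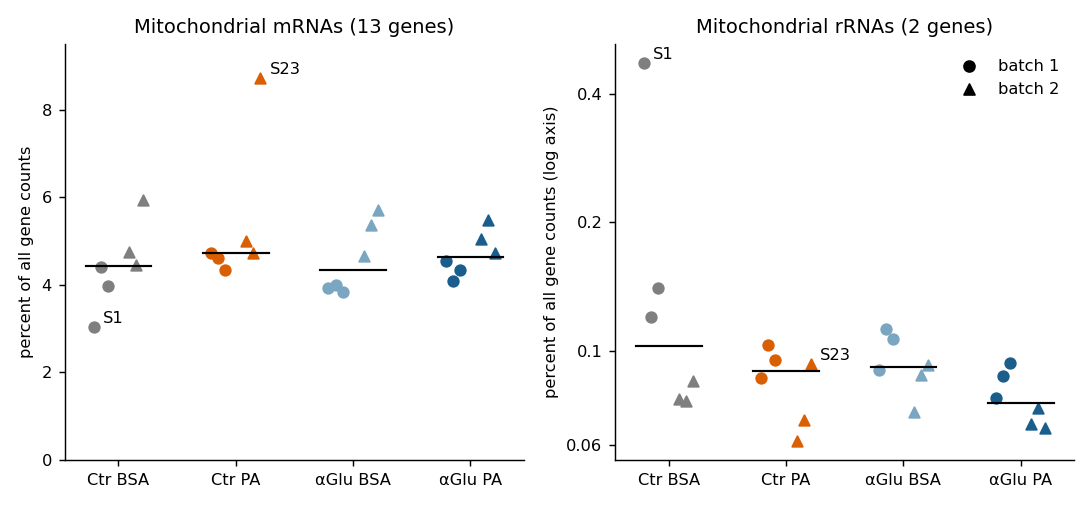
Percent of all gene counts on the 13 mitochondrial mRNAs (left, linear axis) and on the 2 mitochondrial rRNAs (right, log axis) in each of 24 libraries, by group, with circles for batch 1, triangles for batch 2 and a bar at the group median. S23 holds the highest mRNA share (8.73%) and S1 the lowest (3.04%), and S1 also holds the highest rRNA share (0.472%).

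In Ctr cells exposed to PA, 4 of 13 mitochondrial mRNAs rose and both rRNAs fell, and no mRNA was called without S1 and S23. All 13 mRNAs had a positive log2 fold change, from 0.17 for mt-Co1 to 0.42 for mt-Atp8 with a median of 0.30, against a median of 0.01 over all 15916 genes tested. By edgeR's quasi-likelihood test, 4 mRNAs and both rRNAs passed an adjusted p of 0.05, which is 6 of 15 where 30% of all genes did in either direction, 15.5% higher and 14.5% lower. The 4 that rose were 2 complex I genes, mt-Nd1 and mt-Nd3, the complex IV gene mt-Co2 and the ATP synthase gene mt-Atp6. None of the 15 passed the study's rule of a fold change above 2 with p below 0.05, which 5.91% of all genes did. In every one of the 15 genes the PA and BSA libraries overlapped, where 5.82% of all genes did not overlap.

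The values of the called genes show which libraries carried the calls. For mt-Nd1, a membrane subunit of the proton-pumping arm of complex I, the Ctr BSA libraries had 2079, 2625 and 2298 CPM in batch 1 and 2764, 2683 and 3761 CPM in batch 2. Under PA they had 2928, 2910 and 2704 CPM in batch 1 and 3249, 2930 and 5976 CPM in batch 2, so that the treatments separated within batch 1 and overlapped within batch 2. The log2 fold change of mt-Nd1 was 0.34 (SE 0.12, adjusted p = 0.0391). The copper-binding complex IV subunit gene mt-Co2 rose by 0.30 on the log2 scale (SE 0.10, adjusted p = 0.0327), from a mean of 3862 ± 640 to 4766 ± 1357 CPM (SD, n = 6 each). For mt-Atp6, the proton channel subunit of the ATP synthase, the medians were 3414 CPM under BSA (2902 to 4852) and 3891 CPM under PA (3674 to 7978), with a log2 fold change of 0.34 (SE 0.13, adjusted p = 0.044). The short complex I mRNA mt-Nd3 rose by 0.38 (SE 0.14, adjusted p = 0.037), from a median of 211 CPM (186 to 309) to 250 CPM (223 to 552). The highest PA value of each of these genes was that of S23.

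The rRNAs fell in Ctr cells, and here S1 set the size. The BSA libraries had 1705, 379 and 422 CPM of mt-Rnr1 in batch 1 and 248, 235 and 277 CPM in batch 2, against 264, 337 and 284 CPM and 200, 211 and 321 CPM under PA. The first of these values is S1, and among the others the treatments stayed apart within batch 1 and overlapped within batch 2. The log2 fold change was -0.87 for mt-Rnr1 (SE 0.30, adjusted p = 0.0298) and -0.92 for mt-Rnr2 (SE 0.31, adjusted p = 0.0262). Within batch 1 alone the values were -1.51 and -1.57, and within batch 2 alone -0.06 for mt-Rnr1 and -0.07 for mt-Rnr2, neither of which was called.

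Leaving out S1 and S23 removed the mRNA calls and kept the rRNA calls at a smaller size. Without both, the 13 mRNAs ran from -0.03 to 0.16 in Ctr cells and none was called (adjusted p 0.18 to 0.986). The rRNAs fell by 0.33 (mt-Rnr1, SE 0.10, adjusted p = 0.0149) and 0.34 (mt-Rnr2, SE 0.10, adjusted p = 0.0139) on the log2 scale, where 34.3% of all genes were called. Without S1 alone none of the 15 was called, with mt-Rnr1 at -0.22 and mt-Rnr2 at -0.24, and without S23 alone the mRNAs ran from 0.00 to 0.18 with none called. A fit of the Ctr groups alone, S1 and S23 included, also called none of the 15. In bulk samples fewer cells of a type and less RNA per cell cannot be told apart.

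In αGlu cells none of the 15 genes was called under PA, where 28.5% of all genes were, and none had separate PA and BSA libraries, where 8.12% of all genes did. None passed an unadjusted p of 0.05 (39.1% of all genes), and DESeq2 called none of the 14 for which it gave a p-value (all but mt-Rnr1). The 13 mRNAs ran from -0.01 for mt-Nd2 to 0.22 for mt-Atp8, with a median of 0.06. The rRNAs stood at -0.28 for mt-Rnr1 (SE 0.29, adjusted p = 0.522) and -0.27 for mt-Rnr2 (SE 0.30, adjusted p = 0.542). The fit shares its estimate of the spread among all groups, and without S1 and S23, both Ctr libraries, the αGlu values barely moved and their errors shrank. The rRNAs were then called, at -0.28 (SE 0.09, adjusted p = 0.0224) for mt-Rnr1 and -0.27 (SE 0.09, adjusted p = 0.0268) for mt-Rnr2, where 35.8% of all genes were. A fit of the αGlu groups alone called the same rRNAs (adjusted p = 0.015 and 0.0175) and also mt-Atp8 (adjusted p = 0.0421).

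**Figure D3:**
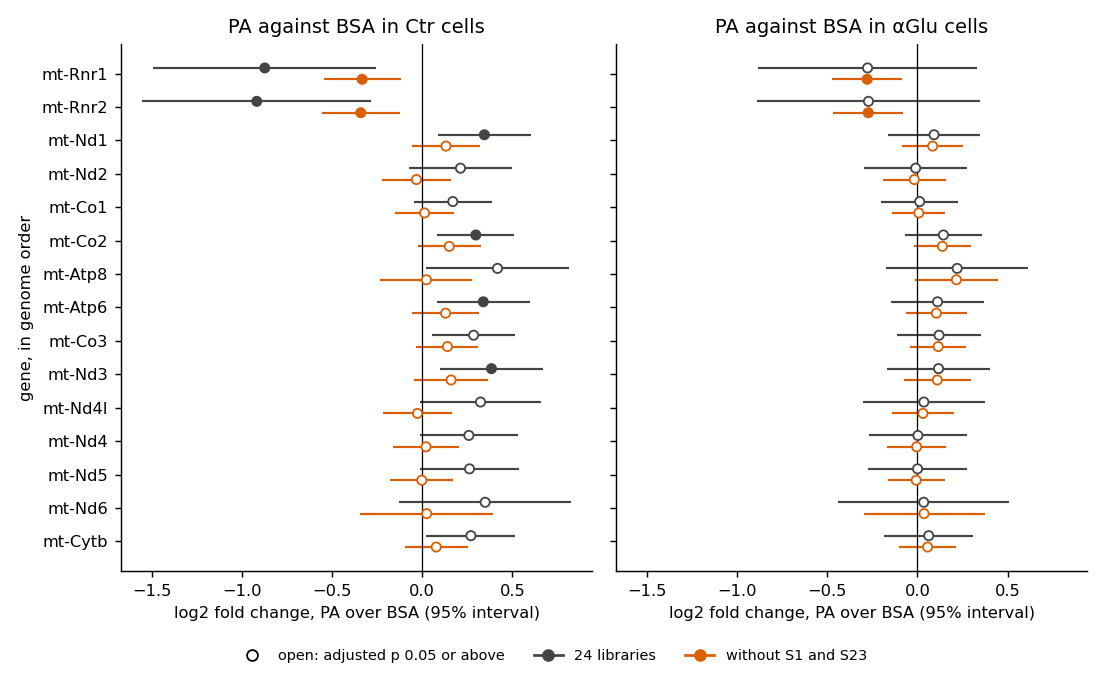
Log2 fold change, PA over BSA, of the 15 tested mitochondrial genes with 95% intervals, in Ctr cells (left) and αGlu cells (right), from all 24 libraries (grey) and without S1 and S23 (orange), with filled points for adjusted p below 0.05. In Ctr cells mt-Rnr1 moves from -0.87 to -0.33 on leaving out S1 and S23 and the mRNAs move towards 0, while in αGlu cells mt-Rnr1 stays at -0.28 and its interval narrows.

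Set against each other within a library, the rRNAs fell relative to the mRNAs in 3 of the 4 combinations of ASO and batch without overlap. In batch 1 Ctr cells had 15.5, 2.72 and 3.53 mt-rRNA counts per 100 mt-mRNA counts under BSA, the first being S1, and 1.83 to 2.24 under PA. In αGlu cells of batch 1 the ratio was 2.30 to 2.81 under BSA and 1.71 to 2.15 under PA. In batch 2 it was 1.54 to 1.63 and 1.34 to 1.40 in αGlu cells, again apart, and 1.43 to 1.71 and 1.07 to 1.46 in Ctr cells, which overlapped. Within the same sets of 4 library numbers the ratio was lower under PA in 6 of 6 in either ASO. This ratio needs no scaling to library size, but it rests on the small part of each rRNA that poly(A) selection captured. Per 1000 nuclear rRNA counts, Ctr cells had 29.6 to 119 mt-rRNA counts under BSA and 32.9 to 127 under PA. In αGlu cells the values were 42.2 to 108 under BSA and 32.3 to 82.8 under PA, so the treatments overlapped in either ASO. The part of nuclear rRNA in the mt-rRNA values was not tested. The 2 rRNAs kept their proportion, with 1.95 to 2.30 counts on mt-Rnr2 per count on mt-Rnr1 in all 24 libraries, S1 included.

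Within the mRNA pool, the proportions differed under PA by small amounts, for some genes in the same direction across ASOs and batches. The share of a gene in the summed counts of the 13 mRNAs was higher under PA in all 4 combinations for mt-Nd1, mt-Co2, mt-Atp8, mt-Atp6, mt-Co3, mt-Nd3 and mt-Cytb, and lower in all 4 for mt-Nd2 and mt-Co1. The smallest of these rises were 0.002 for mt-Cytb, 0.003 for mt-Co3 and 0.006 for mt-Nd1 on the log2 scale, with all libraries in. How many of all genes kept 1 direction in the 4 combinations is not given here. Without S1 and S23, 5 were higher in all 4 (mt-Nd1, mt-Co2, mt-Atp6, mt-Co3 and mt-Nd3) and 4 lower (mt-Nd2, mt-Co1, mt-Nd4 and mt-Nd5). The shares of a pool sum to a constant, so a rise of some forces a fall of others, and over both batches the changes ran from -0.07 to 0.13 in Ctr cells and from -0.06 to 0.18 in αGlu cells on the log2 scale. A two-sided exact permutation test of 6 against 6 libraries was chosen after the data were seen and took no account of batch. In Ctr cells 4 of 13 genes passed an unadjusted p of 0.05, where 14.6% of all genes did relative to the same pool. In αGlu cells 6 of 13 passed (15.8% of all genes). Without S1 and S23 the count in Ctr cells was 9 of 13 (15% of all genes). For genes outside the pool, this measure also carries the variation of the pool's size between libraries, which cancels for its members. The percentages of all genes are therefore not a like background, and no excess of members is read from them. Adjusted over all 15916 genes, no member passed, and the smallest adjusted p was 0.0993 in Ctr and 0.0636 in αGlu cells.

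Examples show the size of these shifts, and the percentages of all genes beside them have the same limit. In Ctr cells mt-Nd1 made up 5.80% to 6.28% of the pool under BSA and 6.33% to 6.44% under PA, without overlap (exact permutation p = 0.00216, the smallest that 6 against 6 allows), where 2.18% of all genes did not overlap relative to the pool. Without S1 and S23 mt-Nd1, mt-Co2 and mt-Co3 had separate treatments in Ctr cells, 3 of 13, as 5.66% of all genes did. In αGlu cells mt-Co2 had 8.15% to 8.60% under BSA and 8.71% to 9.30% under PA, and mt-Nd4, a proton-pumping subunit of complex I, had 11.21% to 11.35% and 10.78% to 11.19%, also without overlap (exact permutation p = 0.00216 each, with 3.41% of all genes not overlapping). With all libraries in, each of these genes overlapped in the other ASO. In αGlu cells mt-Nd1 had 5.92% to 6.23% under BSA and 5.98% to 6.49% under PA. In Ctr cells mt-Co2 had 8.39% to 8.89% and 8.05% to 9.42%, and mt-Nd4 10.80% to 11.27% and 10.68% to 11.96%. The most abundant, mt-Co1, took 26.7% to 28.5% of the Ctr pool under BSA and 24.2% to 27.3% under PA (exact permutation p = 0.00649), and 26.8% to 28.2% against 26.5% to 27.2% in αGlu cells (exact permutation p = 0.013). For mt-Nd6, with the fewest counts, the direction turned between batches, from -0.30 to 0.37 on the log2 scale over the 4 combinations.

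**Figure D4:**
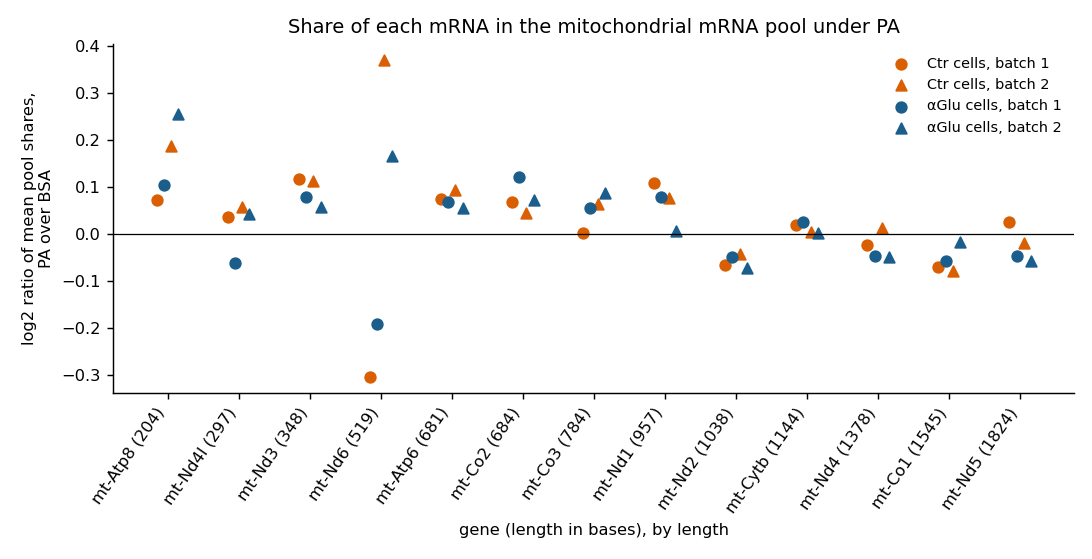
Log2 ratio of the mean share in the mitochondrial mRNA pool, PA over BSA, for each of the 13 mRNAs ordered by annotated gene length. Ctr cells (orange) and αGlu cells (blue) of batch 1 (circles) and batch 2 (triangles) are shown, each from 3 libraries per treatment. The heavy-strand mRNAs from mt-Atp6 to mt-Nd1 lie above 0 in all 4 combinations and mt-Nd2 and mt-Co1 below 0, while mt-Nd6 runs from -0.30 to 0.37.

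With S1 and S23 left out, the 5 genes with a higher share in all 4 combinations were 348 to 957 bases long. The 4 with a lower share were 1038 to 1824 bases long. The genes of mixed direction did not follow length. Of these, mt-Nd4l (297 bases) was higher in 1 of 4, mt-Atp8 (204) and mt-Nd6 (519) in 2 and mt-Cytb (1144) in 3. Lengths here are those of the annotated genes, not of measured RNAs. The overlapping pairs mt-Nd4l with mt-Nd4 and mt-Atp8 with mt-Atp6 were counted as separate genes. Whether a pair shared an RNA was not tested. Across the 13 genes, Spearman's rho between annotated length and the log2 ratio of pool shares was -0.797 in Ctr cells and -0.637 in αGlu cells. It was -0.253 in Ctr cells without S1 and S23. The 13 points come from the same libraries and the shares depend on each other, so these are descriptions. Across 13386 nuclear genes, Spearman's rho between length and the log2 fold change was -0.114 in Ctr cells and -0.224 in αGlu cells. This is another measure, since it uses no pool shares, and it is not given without S1 and S23. In a split by annotated length, made after the data were seen, the 7 heavy-strand genes under 1000 bases were set against the 5 longer ones. In Ctr cells of batch 1 the shorter genes had 0.501 to 0.523 counts per count on the longer ones under BSA. Under PA they had 0.529 to 0.556. In batch 2 the Ctr values were 0.479 to 0.493 under BSA and 0.514 to 0.525 under PA. In αGlu cells they were 0.475 to 0.499 and 0.514 to 0.540 in batch 1, and 0.480 to 0.484 and 0.508 to 0.517 in batch 2. The treatments did not overlap in any of the 4 combinations, S1 being the highest BSA library and S23 the lowest PA library of theirs, so that over both batches Ctr cells overlapped and αGlu cells did not. The fold between means was 1.07 in Ctr and 1.08 in αGlu cells. The part of RNA quality, for which the library records used here give no value per library, was not tested.

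**Figure D5:**
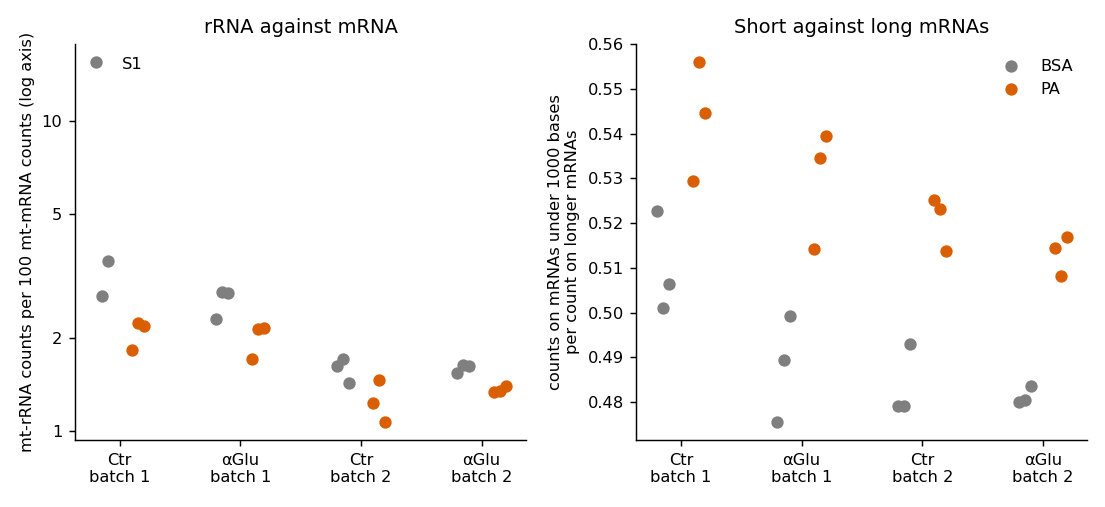
Left, mt-rRNA counts per 100 mt-mRNA counts (log axis). Right, counts on the 7 heavy-strand mRNA genes annotated under 1000 bases per count on the 5 longer ones (axis not from 0). Each library is shown under BSA (grey) or PA (orange) by ASO and batch. PA points lie below BSA points on the left in all combinations but Ctr batch 2, where they overlap, and above them on the right in all 4.

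The αGlu ASO was compared with Ctr under each treatment, the question being whether inhibiting the fragment altered the transcripts. Under BSA edgeR called none of the 15 genes, nor any of the 15916 genes tested, DESeq2 called none of the 14 it gave a p-value, and 2 of the 15 passed an unadjusted p of 0.05 where 2.90% of all genes did. Those were mt-Rnr1 and mt-Rnr2, at -0.73 and -0.77 on the log2 scale, which stood at -0.08 and -0.10 without S1. The mRNAs ran from -0.12 to 0.06. Under PA, again with no gene of the table called, all 13 mRNAs had negative values, from -0.35 to -0.14, and none passed an unadjusted p of 0.05 in edgeR (3.38% of all genes). Without S23 the mRNAs ran from -0.08 to 0.01.

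The difference between the PA responses of αGlu and Ctr cells, tested as an interaction, was called for none of the 15 genes and for no other gene, and none of the 15 passed an unadjusted p of 0.05 (2.09% of all genes). Its estimates were -0.31 to -0.15 for the mRNAs and 0.60 and 0.65 for the rRNAs, with 95% intervals that held 0. The lowest and highest ends of these intervals were -0.98 and 0.36 over the mRNAs and -0.27 and 1.53 over the rRNAs. These ends came from different genes, and others had narrower intervals, such as mt-Co1 with -0.46 to 0.15. The estimates rested largely on S1 and S23. Without S1 the rRNAs stood at -0.05 (mt-Rnr1) and -0.03 (mt-Rnr2). Without S23 the mRNAs ran from -0.08 (mt-Nd1) to 0.11 (mt-Atp8). These comparisons share their control libraries with those of PA.

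Between batches all 15 tested mitochondrial genes differed. All 13 mRNAs rose in batch 2 relative to batch 1, by 0.37 (mt-Co3) to 0.70 (mt-Nd6) on the log2 scale with adjusted p between 5.49e-05 and 0.00473, and both rRNAs fell by 0.60 and 0.61. All 15 were called, where 51.5% of all genes were, 26.1% higher and 25.4% lower. The libraries of the batches did not overlap for mt-Nd2 and mt-Nd5 only, 2 of 15, where 6.87% of all genes did not. Without S1 and S23 all 15 were still called, with the mRNAs at 0.27 to 0.55 and the rRNAs at -0.40 and -0.39 (54.6% of all genes). Scaled by their own pool none of the 13 mRNAs was called, and 5 of them (mt-Nd1, mt-Co1, mt-Co2, mt-Atp6 and mt-Co3) had a negative value.

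Cell type markers moved with the batches. All 9 beta cell markers were called higher in batch 2, with summed levels of 110087 to 151590 CPM against 83805 to 133803 CPM. All 9 acinar markers were called lower, with sums of 228 to 616 CPM against 3155 to 23237 CPM and a median log2 fold change of -4.44. Of 4 alpha cell markers 3 were called lower and 1 higher. Also called lower were 4 of 5 ductal, 2 of 2 PP (pancreatic polypeptide) cell, 3 of 5 endothelial and 1 of 3 delta cell markers. Called higher were 1 of 7 macrophage and 2 of 5 Schwann cell and glia markers. Of all genes 25.4% were called lower and 26.1% higher. The nuclear rRNA share was 0.549% to 1.65% in batch 2 and 1.06% to 15.9% in batch 1. The part of these in the mitochondrial difference was not tested. The difference between the PA responses of the batches was called for none of the 15 genes (0.0565% of all genes), and 3 libraries of each group in each batch left the PA comparisons balanced.

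Markers also moved with PA. In Ctr cells 7 of 9 acinar markers were called lower, with sums of 428 to 23237 CPM under BSA and 228 to 8499 CPM under PA, as were 5 of 7 macrophage markers (76.6 to 353 and 83.7 to 127 CPM) and 4 of 5 tested fibroblast and stellate cell markers (65.0 to 411 and 6.70 to 41.2 CPM). Of the 9 beta cell markers 3 were higher and 3 lower, with sums of 87071 to 134677 CPM under BSA and 83964 to 131596 CPM under PA. In αGlu cells 6 of 9 acinar markers were called lower, 7 of 9 without S1 and S23, the fit in which the αGlu rRNAs were called, with sums of 524 to 14210 CPM under BSA and 324 to 7602 CPM under PA. Of the αGlu fibroblast and stellate cell markers 3 of 5 tested were lower in either fit (38.9 to 922 and 4.12 to 156 CPM), and of the macrophage markers 1 of 7 (90.03 to 171 and 80.3 to 138 CPM). The beta cell markers in αGlu cells were 3 higher and 2 lower, with sums of 87758 to 151590 CPM and 83805 to 136190 CPM. Every marker of these lists had counts. Their part in the mitochondrial values was not tested.

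The partner subunits encoded in the nucleus gave a background to the mitochondrial mRNAs. Of 72 tested nuclear subunits of complexes I, III, IV and ATP synthase, 20 rose and none fell under PA in Ctr cells, 27.8% where 15.5% of all genes rose, and their median change was 0.14 on the log2 scale, below the mRNA median of 0.30. Without S1 and S23, 50 of 72 rose (69.4%, against 18% of all genes) with a median of 0.24, while none of the 13 mitochondrial mRNAs was called and their median was 0.02. In αGlu cells 31 of 72 rose (43.1%, against 14.4% of all genes, median 0.20), and 46 without S1 and S23 (63.9%, against 18.1% of all genes, median 0.19), beside no mitochondrial mRNA in either fit. Whether the nuclear and mitochondrial subunits differed was not tested.

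By complex, those that rose in Ctr cells were 8 of 36 in complex I, 4 of 9 in complex III, 3 of 12 in complex IV and 5 of 15 in the ATP synthase, and 2 of 4 in complex II, which has no mitochondrial gene. These are 22.2%, 44.4%, 25% and 33.3% of the members tested in complexes I, III, IV and the ATP synthase, beside the 15.5% of all genes that rose, and none of them fell. Ndufb3 of complex I rose by 0.31 (SE 0.08, adjusted p = 0.00551), Uqcrfs1, the iron-sulfur protein of complex III, by 0.20 (SE 0.05, adjusted p = 0.00506) and Atp5g1, a c-ring subunit of the ATP synthase, by 0.28 (SE 0.08, adjusted p = 0.00588). Cox7b of complex IV had a log2 fold change of 0.22 (adjusted p = 0.0256) and Sdhc of complex II 0.21 (adjusted p = 0.00145). Of 46 tested assembly factors 16 rose and 1 fell (37% called, against 30% of all genes), with Coa3, needed for early complex IV assembly, at 0.41 (adjusted p = 3.05e-05). These counts changed without S1 and S23, where 18% of all genes rose. In that fit 27 of 36 rose in complex I, 5 of 9 in complex III and 8 of 12 in complex IV. In the ATP synthase 10 of 15 rose and in complex II 4 of 4, and of the assembly factors 20 rose and 1 fell.

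None of the core transcription genes of mitochondrial DNA passed the test. In Ctr cells the mitochondrial RNA polymerase Polrmt stood at -0.09, its factors Tfam and Tfb2m at 0.04 and 0.01 and the elongation factor Tefm at 0.16, none of them called (adjusted p 0.169 to 0.943). Of 24 tested genes of mitochondrial DNA transcription and replication, 5 rose and 1 fell (25% called, below the 30% of all genes), the one that fell being Polg2, the accessory subunit of the DNA polymerase, at -0.50 (adjusted p = 0.000202). Ppargc1a, a coactivator of mitochondrial biogenesis genes, had means of 3.86 CPM under BSA and 7.37 CPM under PA and rose by 0.93 (SE 0.17, adjusted p = 0.00026), within a list of 14 tested biogenesis regulators of which 2 rose and 3 fell (35.7% called, against 30%).

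Among 42 tested genes of mitochondrial RNA processing and stability, 10 rose and 2 fell in Ctr cells, 28.6% called where 30% of all genes were, so this share was near the background. Lrpprc, which binds and stabilises mitochondrial mRNAs, rose by 0.23 (SE 0.04, adjusted p = 4.91e-05), and its partner Slirp stood at 0.13 (adjusted p = 0.355). The ribonucleases Lactb2 and Rexo2 rose by 0.67 and 0.36. Of 22 tested mitochondrial aminoacyl-tRNA synthetase genes, which serve the tRNAs that these libraries did not count, 5 rose and 3 fell (36.4% called, against 30%), among them Tars2 at -0.38 (adjusted p = 6.18e-05). Lars2, the leucyl-tRNA synthetase gene, was called lower at -1.30 (adjusted p = 0.0497). It had 18129 CPM in S1 and 870 to 3398 CPM in the other libraries, the highest of those being S9. S1 and S9 also had the highest nuclear rRNA shares, 15.9% and 3.47%. The part of rRNA reads in the Lars2 counts was not tested. Of 19 tested genes of mitochondrial proteostasis 11 rose and none fell (57.9%, where 15.5% of all genes rose), the protease Lonp1 by 0.72 (adjusted p = 2.31e-07) and the chaperone Hspa9 by 0.57 (adjusted p = 1.06e-06). Without S1 and S23, 15 of these 19 rose (78.9%, where 18% of all genes rose).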

How the data were processed

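Poly(A)-selected RNA from 24 libraries was sequenced, and the values deposited by the authors are read counts per gene, with TPM and 2 further value columns per library. The authors made the counts with the QIAGEN RNA-seq Analysis Portal, and the build named in the submitters' processing notes is GRCm38. Aligner and its settings were not given in the sources used here, and nor was strand use. Both the counts and the deposited TPM were used, and 48 other value columns were not.

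Counts were tested with edgeR 4.0.16 (R 4.3.3, limma 3.58.1), with filterByExpr by group (minimum of 10 counts), TMM factors, a quasi-likelihood fit of group and batch over 24 libraries, and Benjamini-Hochberg adjustment over all 15916 of 41549 genes tested. A call is an adjusted p below 0.05, the study's fold change above 2 with p below 0.05 is given beside it, and CPM are scaled by the TMM factors. The script was tested on simulated data. Shares of counts are percentages of all gene counts in a library. Intervals are at 95%, and floors (3 counts) cover counting error only.

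The members and gene lists were chosen with earlier results of these data known. All mt- genes are named, and of each nuclear list genes among the 3 of smallest p, with Polrmt, Tfam, Tfb2m, Tefm, Lrpprc, Slirp and Ppargc1a whatever their values. Lars2 and the split of mRNAs by length were singled out after their values were seen. Alternatives were DESeq2 1.42.0, other scalings and filters, other designs, sets of 4 consecutive library numbers as a block, each batch alone, the deposited TPM for the share, and leaving out libraries.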

Additional observations from a re-analysis of the deposited data

Results flagged for a closer look

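In groups of 6, a library was taken to stand apart where its gap to the nearest other was over 0.625 of the group's range (Dixon's critical value), and 17 of 68 groups examined held such a library, where chance gives about 1 in 20. All 17 were S23 or S1, and groups from the same library are not independent. Library S23 was the highest Ctr PA library in 14 of them, which are the summed mRNA share (8.73% of counts) and all 13 mRNAs. Its CPM were 5976 for mt-Nd1, 5951 for mt-Nd2, 22481 for mt-Co1, 7492 for mt-Co2, 666 for mt-Atp8, 7978 for mt-Atp6 and 7872 for mt-Co3. It had 552 CPM of mt-Nd3, 1045 of mt-Nd4l, 11133 of mt-Nd4, 11464 of mt-Nd5, 29.996 of mt-Nd6 and 10432 of mt-Cytb. Library S1 was the highest Ctr BSA library for mt-Rnr1 (1705 CPM), mt-Rnr2 (3831 CPM) and the summed rRNA share (0.472% of counts).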

How the results depend on the processing

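Of the 15 tested mitochondrial genes, 6 were called under PA in Ctr cells. DESeq2, which gave mt-Rnr1 no p-value, called 3 (mt-Co2, mt-Co3 and mt-Rnr2), scaling by the mitochondrial mRNA pool 2, dropping the batch term 1, the compared groups fitted by themselves 0, batch 1 alone 3, batch 2 alone 0, leaving out S1 and S23 together 2, and the rule of a fold change above 2 with p below 0.05 gave 0. Leaving out single libraries gave 0 to 10, with 0 without S1, 1 without S3, 2 without S7, S13, S17 or S23, 3 without S9 and 10 without S19. In αGlu cells, with 0 called, the compared groups alone gave 3 and leaving out S1 and S23 gave 2. Of the 15 called between batches, pool scaling called 2 and the fold rule 0, and leaving out single libraries gave 14 to 15. Under pool scaling the batch values of mt-Nd1 (-0.018), mt-Co1 (-0.028), mt-Co2 (-0.030), mt-Atp6 (-0.046) and mt-Co3 (-0.055) turned negative, which follows from dividing by the pool they belong to. The rise in summed mRNA share in Ctr cells, 0.934 percentage points of counts, was 2.81 of the deposited TPM and 0.260 to 1.24 on leaving out single libraries. The causes of the other changes were not tested. Under the alternatives run, 305 counts of calls and share differences stayed near their main value and 23 moved. Of the single genes' values, 951 kept their direction and side of the threshold, 83 lost the call, 11 gained it and 5 reversed. The labels do not pair libraries, so sets of 4 consecutive library numbers were used as a replicate block, chosen after the data were seen. Deviations from group means within a batch correlated at 0.0183 to 0.37 in the 36 pairs of a set (above 0.1 in 25, in all 18 of batch 1 and 7 of batch 2), and 24 of 24 libraries correlated best with their own set, a hint from the data and not from the design. With the replicate block 7 of 15 genes were called in Ctr cells (6 mRNAs higher, mt-Rnr2 lower, 35.3% of all genes called) and 0 in αGlu cells, and without S1 and S23 as well 2 in Ctr cells (both rRNAs) and 3 in αGlu cells (both rRNAs and mt-Atp8). The tRNAs had too few counts for any comparison, and mt-Nd6 had the fewest counts of the 15 tested genes.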
